A study of Mus musculus with 4 samples.

Results

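The comparison set RNA of GFP+ cells labelled null against RNA of GFP+ cells labelled het, both sorted from mouse adipose tissue. It rested on 2 libraries labelled null GFP+ (numbers 1 and 3) and 1 library labelled het GFP+ (number 2), each hybridized to an Illumina Mouse-6 V2 BeadChip. Its members were all genes with a probe whose detection p-value was under 0.01 on at least 1 array, with the probe of highest mean standing for the gene. This kept 9975 of the 19057 genes that have a probe, and 9082 did not pass. At the edge of the filter, the 525 genes with a lowest detection p-value between 0.005 and 0.01 had a median highest intensity of 158, and the 537 genes between 0.01 and 0.02 one of 149.

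The study asked how PPARγ, the nuclear receptor that drives fat cell formation, acts in adipose progenitor cells (APCs). Its AdipoTrak mice carry a tTA transactivator in the Pparg locus, which switches on a TRE-H2B-GFP reporter, so that cells with an active Pparg promoter keep a green nucleus, and the tTA insertion takes the place of a Pparg copy. All libraries came from mice aged 2 months, given as strain Black 6 by the labels and as a mixed C57BL/6-129/SV background by the study's methods. The groups were genotype PPARG null with flow-sorted GFP+ cells, genotype PPARG het with flow-sorted GFP+ cells, and PPARG null with flow-sorted GFP− cells (1 library, number 3). The null GFP− library counted in the filter, the choice of probe per gene and the scaling of the arrays. It was a group of its own in the model and otherwise gave reference values. The het library was taken as the control, and whether both null groups came from a whole-body deletion with Sox2-Cre or from deletion in the adipose lineage with a tTA-driven Cre is not given by the labels. The methods describe live single stromal vascular cells, a fraction that leaves out the floating adipocytes, sorted from several mice, and which mice went into which library is not given by the labels.

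The gene named in the genotypes goes against the labels, and this bears on every direction below. Under the label null GFP+ the Pparg probe of highest mean had intensities of 3217 and 2479, against 188 under the label het GFP+, with 209 under null GFP−. The null GFP+ values lay far above both others, a difference of 4.84 ± 0.31 on the log2 scale (SE; adjusted p = 0.00926, limma). Without background correction this difference was 3.91. Another tested Pparg probe read 495 and 363 in null GFP+, 129 in het GFP+ and 101 in null GFP−. The remaining Pparg probe did not pass the filter, at 112 and 115 in null GFP+, 97 in het GFP+ and 107 in null GFP−. Where the probes lie relative to the deleted part of the gene is not known here. Therefore "null GFP+" and "het GFP+" stand below for the libraries labelled so, and directions are by label only. Over the 9975 genes the 2 null GFP+ libraries correlated at 0.980 with each other and at 0.934 and 0.913 with the het GFP+ library, while the null GFP− library correlated at 0.982 with het GFP+. These correlations are across genes, which are not independent replicates. Xist, the RNA that silences an X chromosome in female cells, read 2559 and 2371 in null GFP+, 100 in het GFP+ and 1440 in null GFP−. Eif2s3y, a gene of the Y chromosome chosen after its values were seen, read 408 and 252 in null GFP+, 729 in het GFP+ and 412 in null GFP−. The labels do not give the sex of the mice, so sex and genotype label cannot be told apart here.

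Adipose stroma holds fibroblast-like progenitors, endothelial cells that line the vessels, mural cells around them and many leukocytes, mainly macrophages, with mast cells and neutrophils. PPARγ is needed for progenitors to become fat cells, and it switches on genes of lipid uptake and storage. Progenitors in mouse fat sit in the connective tissue sheath and along vessels, and they make much of the extracellular matrix of the tissue.

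Of the 9975 genes, 131 (1.31%) were higher and 260 (2.61%) were lower in null GFP+ than in het GFP+ at an adjusted p under 0.05 (limma, Benjamini-Hochberg over all probes tested). A further 3956 (39.7%) were equal within 2-fold, meaning that the 95% interval of the difference lay between -1 and 1 on the log2 scale. All 131 and all 260 lay on the same side of het GFP+ in both null GFP+ libraries. This follows from the test, whose spread comes from the difference between those libraries, and is no separate check on the calls. Past 2-fold by size alone, with no test, were 558 genes higher and 655 lower, and 790 higher and 896 lower had an unadjusted p under 0.05. The median difference over all genes was 0.05 on the log2 scale. With 1 het GFP+ library its spread was taken to equal that between the null GFP+ libraries, so the p-values measure only the spread between those 2 libraries, which may be technical. With no filter on detection 15 higher and 39 lower genes passed, of 19057 tested. The narrowest interval reached 0.69 to either side, so only genes within 0.30 of no difference could be called equal, while 8762 lay within 2-fold by the estimate alone.

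**Figure D1:**
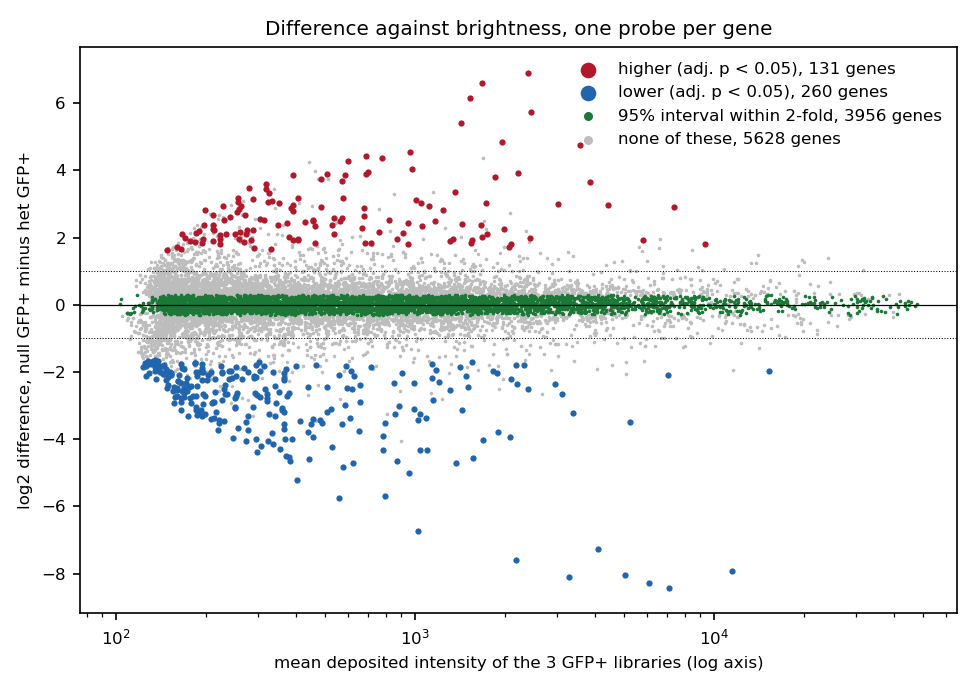
Each point is a gene, placed by the mean intensity of its probe in the 3 GFP+ libraries (log axis) and by the log2 difference, null GFP+ minus het GFP+, with dotted lines at a 2-fold difference. Red points are the 131 higher genes, blue points the 260 lower, green points the 3956 equal within 2-fold and grey points the rest. The lower genes reach -8.41, and the brightest probes at the right lie close to 0.

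Many of these differences were between a measured signal and none. In 67 of the 131 higher genes the het GFP+ library lay under the detection signal of 154, and in 132 of the 260 lower genes both null GFP+ libraries did. For such genes the fold is a lower bound, written as "at least", and taken from the deposited intensities, the geometric mean of the null GFP+ libraries and the het GFP+ value, with the detection signal standing for the undetected side. It still contains the background, and log2 differences, which are background-corrected, are larger. On all 3 GFP+ libraries 64 higher and 104 lower genes were above the detection signal, among 8156 genes that were. The null GFP− library lay nearer het GFP+ than the mean of null GFP+ in 124 of the 131 higher and 240 of the 260 lower genes, and in 2100 of the 3956 equal ones.

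The brightest genes that were higher, past the 12 largest changes, included genes of growth factors, matrix proteins, transcription factors and transporters. Their 15 differences ran over 1.73 to 3.94 on the log2 scale, and all 15 were above detection on the 3 GFP+ libraries (adjusted p 0.00952 to 0.0499, limma). Fgf10, a secreted ligand of FGFR2 that mice need to form white fat, read 5521 and 5549 in null GFP+ against 528 in het GFP+ and 723 in null GFP−. The null GFP+ libraries were alike and stood well above both others, by 3.64 ± 0.27 over het GFP+ (adjusted p = 0.0102). Its receptor gene Fgfr2 read 2700 and 2650 in null GFP+ against 871 in het GFP+, a difference of 1.73 ± 0.27 (adjusted p = 0.0432). Ptn, which encodes the heparin-binding growth factor pleiotrophin, read 4154 and 4263 in null GFP+ against 612 in het GFP+, 2.99 ± 0.27 higher (adjusted p = 0.0123). It was also the 1 gene of the 15 in which the null GFP− library, at 3880, sat with null GFP+ rather than with het GFP+.

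Matrix and cell surface genes were among the brightest of these. Col18a1, a basement membrane collagen whose end fragment is endostatin, read 11446 and 13025 in null GFP+ against 3554 in het GFP+ (1.81 ± 0.28 higher). Aoc3, the amine oxidase also called vascular adhesion protein, read 11200 and 9497 in null GFP+ against 1458 in het GFP+. Its difference was 2.90 ± 0.29 (adjusted p = 0.0144, limma), with null GFP− at 1711. Adamts4, a protease that cuts aggrecan and other proteoglycans, read 2787 and 3623 against 870 (1.99 ± 0.31 higher in null GFP+). Slc1a3, a glutamate and aspartate transporter, read 2432 and 3028 in null GFP+ against 842 in het GFP+, and its adjusted p of 0.0499 lay just under the threshold.

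Transcription factors and intracellular proteins made up the others. Egr2, a zinc finger factor induced early when mouse preadipocytes differentiate, read 6229 and 6203 in null GFP+ against 878 in het GFP+ (2.96 ± 0.27 higher). Gsc, the homeobox factor goosecoid, read 3063 and 2227 against 272, 3.81 ± 0.33 higher in null GFP+. Scg3, a granin of secretory granules, read 3311 and 3026 in null GFP+ against 293 in het GFP+ and rose by 3.94 ± 0.28. In all 3 the null GFP+ libraries lay clear of het GFP+. Septin11, a filament-forming GTP-binding protein, differed by 1.93, Rgcc, a regulator of the cell cycle, by 2.27, and Slc9a3r2, a PDZ scaffold, by 2.12. Mmd, a membrane protein named from monocyte maturation, differed by 3.03, and Fah, the last enzyme of tyrosine breakdown, by 2.03.

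**Figure D2:**
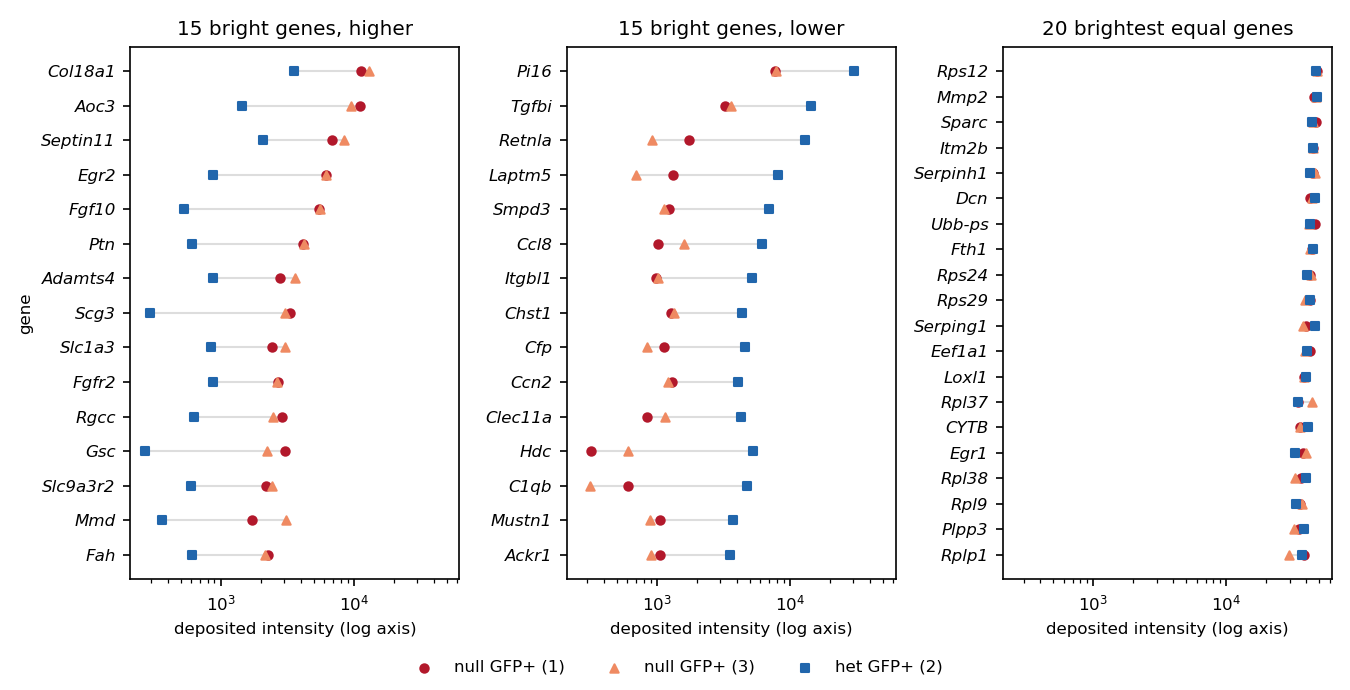
Deposited intensity (log axis) of single genes in the null GFP+ libraries (red circles and orange triangles) and in the het GFP+ library (blue squares), with a grey line from the lowest to the highest. In the left panel both null GFP+ points lie right of het GFP+ for all 15 genes, in the middle panel left of it for all 15, and in the right panel the 20 brightest equal genes lie together between 29657 and 48162.

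Ranked by size, the genes after the 12 largest rises spanned 3.48 to 3.96 on the log2 scale and were mostly unmeasured in het GFP+. Of these 12 genes, 9 have only a lower bound, between 2.38-fold and 6.18-fold, or between 4.44-fold and 13.9-fold after background correction. Reep6, a shaper of the endoplasmic reticulum, read 789 and 1155 in null GFP+ against 148 in het GFP+, at least 6.18-fold higher. Gpihbp1, which carries lipoprotein lipase to the capillary lumen, read 785 and 831 against 141, at least 5.23-fold higher in null GFP+. Cd300lg, an endothelial surface receptor, was at least 4.26-fold higher and Nes, the intermediate filament nestin, at least 2.71-fold. Map2, a microtubule-binding protein best known from neurons, read 578 and 1346 in null GFP+ against 145 in het GFP+, at least 5.71-fold higher. Its estimate of 3.90 on the log2 scale was 4.58 without null GFP+ library 1 and 3.21 without library 3, and with the mean of its tested probes Map2 differed by 2.31 and no longer passed (adjusted p = 0.0545, limma). The metalloproteinase genes Adam12 (at least 5.07-fold), Adamts19 (at least 4.44-fold) and Adamts18 (at least 2.38-fold) and the metalloproteinase inhibitor Timp4 (at least 3.42-fold) completed the set, beside Fgf10, Gsc and Scg3.

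Growth factors and morphogens were called in both directions. Of 72 listed genes, 59 passed the filter, of which 4 (6.78%, beside 1.31% of all genes) were higher, 1 (1.69%, beside 2.61%) was lower and 6 (10.2%, beside 39.7%) were equal, and their median difference of -0.32 compares with 0.05 over all genes. The higher genes were Fgf10, Ptn, Fgfr2 and Pdgfb, and the last, a ligand of PDGF receptors chosen after its values were seen, read 499 and 452 in null GFP+ against 186 in het GFP+ (2.03 ± 0.28 higher, adjusted p = 0.0323). The lower gene was Ccn2, the connective tissue growth factor, at 1290 and 1208 in null GFP+ against 4062 in het GFP+ (-1.78 ± 0.27, adjusted p = 0.0410). Igfbp7, an insulin-like growth factor binding protein, and Vegfb, a member of the VEGF family, were equal at differences of 0.27 and -0.14. Several members chosen after their values were seen lay past 2-fold without passing. Pdgfc read 207 and 156 in null GFP+ against 598 in het GFP+ (-2.57, adjusted p = 0.0510), and Bmp4 read 548 and 739 against 1706 (-1.57, adjusted p = 0.0947). Mdk, which encodes midkine, the relative of pleiotrophin, read 5238 and 12459 in null GFP+ against 2126 in het GFP+ (1.97, adjusted p = 0.184), and there the null GFP+ libraries differed from each other more than 2-fold.

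Immediate early genes, which cells switch on within minutes of a stimulus or of tissue dissociation, held both called and equal members. All 40 tested members were above detection on the 3 GFP+ libraries. Of these, 3 (7.5%, beside 1.31% of all genes) were higher, none was lower and 16 (40%, beside 39.7%) were equal. Their median difference was 0.17. The higher genes were Egr2, Egr3 and Arc. Arc, which acts at synapses, read 1653 and 1767 in null GFP+ against 322 in het GFP+ (2.82 ± 0.27, adjusted p = 0.0138), and Egr3, a close relative of Egr2, read 850 and 897 against 251 (2.30 ± 0.27, adjusted p = 0.0225). In each the 2 null GFP+ libraries agreed closely and lay above both other libraries. Egr1, another member of the same family, was instead equal at 37961 and 39868 in null GFP+ against 32747 in het GFP+ (0.25, 95% interval -0.45 to 0.95). Zfp36l1, an mRNA-decay factor, was equal too, at -0.08.

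Matrix genes were called in both directions. Over the collagen, proteoglycan and matrix protease lists together, 101 genes passed the filter, and 5 (4.95%, beside 1.31% of all genes) were higher, 3 (2.97%, beside 2.61%) were lower and 29 (28.7%, beside 39.7%) were equal, with a median of -0.05. Beside Col18a1, Adamts4, Adam12 and Timp4 the fifth was Sparcl1, a secreted relative of Sparc, at 315 and 337 in null GFP+ against 157 in het GFP+ (1.86). The lower ones were Col8a1, Fmod and Mmp9. Col8a1, a short-chain collagen, read 173 and 161 in null GFP+ against 764 in het GFP+ (-3.18). Fmod, the collagen-binding proteoglycan fibromodulin, read 152 and 202 against 607 (-2.67). Mmp9, a gelatinase that was also counted in the neutrophil list, read 137 and 140 against 473 (at least 3.07-fold lower). Equal members were among the brightest probes of the array, with Mmp2 at 45934 and 47620 in null GFP+ against 48162 in het GFP+, Sparc at 47620 and 45248 against 44000 and Dcn, which encodes decorin, at 42417 and 44000 against 46894. The collagen chaperone Serpinh1 and the collagen crosslinker Loxl1 were equal as well (0.11 and -0.05). The basement membrane collagens Col4a1 and Col4a2, chosen after their values were seen, were past 2-fold without passing. Col4a1 read 31355 and 29442 in null GFP+ against 11683 in het GFP+ (1.39, adjusted p = 0.0778), and Col4a2 read 25045 and 24214 against 9855 (1.33, adjusted p = 0.0853).

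Of 39 progenitor and stromal genes tested, 0 were higher, 2 (5.13%, beside 2.61% of all genes) were lower and 9 (23.1%, beside 39.7%) were equal, with a median of -0.17. At an unadjusted p under 0.05 (limma), 5 were higher and 6 lower, and by size alone 3 lay past 2-fold higher and 4 past 2-fold lower. Without background correction 2 passed as higher and 4 as lower, and with an intensity trend 1 and 4. Pi16, a peptidase inhibitor that marks the fibroblast progenitors of the connective tissue sheath in mouse fat, read 7689 and 7894 in null GFP+ against 30298 in het GFP+ and 28139 in null GFP−. It was 1.97 ± 0.27 lower on the log2 scale (adjusted p = 0.0321) and was the brightest lower gene. Sfrp4, a secreted modulator of Wnt signalling, read 195 and 179 in null GFP+ against 508 in het GFP+ (-2.14 ± 0.29, adjusted p = 0.0305). Dcn and the tetraspanin gene Cd81 were equal.

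The other bright genes that were lower included leukocyte genes, given below, and genes of mixed function. Tgfbi, a matrix protein induced by TGF-β, read 3261 and 3588 in null GFP+ against 14296 in het GFP+ (-2.09 ± 0.28, adjusted p = 0.0292, limma). Smpd3, a neutral sphingomyelinase, read 1243 and 1133 against 6941 (-2.65 ± 0.28, adjusted p = 0.0164), and Itgbl1, a secreted integrin-like protein, read 980 and 1012 against 5165 (-2.49 ± 0.27, adjusted p = 0.0182). In all 3 the null GFP+ libraries were close to each other and the null GFP− library, at 11285, 11756 and 4814, lay nearer het GFP+. Chst1, a sulfotransferase of keratan sulfate, differed by -1.80, Clec11a, a secreted lectin-like growth factor of bone and blood progenitors, by -2.22 and Mustn1, a small nuclear protein of the musculoskeletal system, by -2.04. Ackr1, a decoy receptor for chemokines on venules and red cells, differed by -1.96.

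Leukocyte genes made up the largest share of the lower genes that belonged to a list. Over the mast cell, neutrophil, macrophage and dendritic cell, pan-leukocyte and MHC class II lists, 128 genes passed the filter. Of these, 76 (59.4%, beside 2.61% of all genes) were lower, 0 were higher and 4 (3.12%, beside 39.7%) were equal (limma). At an unadjusted p under 0.05, 108 were lower and 0 higher, and no other setting run called a gene of these lists higher. They made up 29.2% of all lower genes, and their median difference was -2.57. In bulk samples such as these, fewer cells of a type and less RNA per cell cannot be told apart. By list, 14 of 19 mast cell genes, 16 of 21 neutrophil genes, 19 of 35 macrophage and dendritic cell genes and 26 of 42 pan-leukocyte genes were lower, with medians of -3.99, -2.93, -2.66 and -2.44. Many of them were above the detection signal in het GFP+ but in neither null GFP+ library. These were 8 mast cell, 12 neutrophil, 9 macrophage and dendritic cell and 20 pan-leukocyte genes. Such genes could pass the filter through het GFP+ or null GFP− alone, which favours a lower call. With detection on all 3 GFP+ libraries 3 of 7 mast cell, 3 of 7 neutrophil, 13 of 21 macrophage and dendritic cell and 7 of 16 pan-leukocyte genes were lower, with medians of -1.73, -1.09, -2.87 and -2.41. With no filter on detection 6 of 28, 7 of 26, 4 of 41 and 3 of 55 were lower. The medians of the null GFP− library minus het GFP+ were 0.01, -0.23, -0.48 and 0.28 for the same lists. The summed intensity of the neutrophil list was 8812 and 7841 in null GFP+ against 44699 in het GFP+, and that of the pan-leukocyte list was 16738 and 14339 against 45036. Mast cell genes summed to 28146 and 33555 in null GFP+ against 134131 in het GFP+, of which Cd63, a tetraspanin of many cell types, made up 23801 and 29004 against 20846. Without it the sums were 4345 and 4551 in null GFP+ against 113285 in het GFP+. Macrophage and dendritic cell genes summed to 36009 and 29966 against 86604. What part these leukocyte genes had in the other differences was not tested.

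Single leukocyte genes showed how wide the gap was. Laptm5, a lysosomal membrane protein of blood cells, read 1321 and 703 in null GFP+ against 8117 in het GFP+ (-3.21 ± 0.47, adjusted p = 0.0376). Hdc, which makes histamine in mast cells, read 318 and 602 against 5309, and its estimate of -3.94 was -3.35 without null GFP+ library 1 and -4.53 without library 3. C1qb, a chain of complement C1q made by macrophages, read 610 and 316 in null GFP+ against 4778 in het GFP+, with -3.78, or -4.39 without library 1 and -3.18 without library 3. Retnla, a secreted product of alternatively activated macrophages, read 1732 and 927 against 13082 (-3.47), and Cfp, which encodes properdin, read 1135 and 841 against 4600 (-2.35). In each of these the het GFP+ value was far above the higher of the null GFP+ values.

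Ranked by size, the 12 genes after the largest falls spanned -4.83 to -4.33. Kit, the stem cell factor receptor of mast cells, read 138 and 162 in null GFP+ against 1563 in het GFP+ and 1372 in null GFP−. Tpsab1, a mast cell tryptase, was at least 4.33-fold lower, Slc6a4, the serotonin transporter, at least 5.61-fold and Il1b, the cytokine interleukin 1β, at least 5.81-fold. The lectins Mgl2, Cd209f and Fcna and the folate receptor Folr2, all known from macrophages, differed by -4.70, -4.56, -4.33 and -4.33 on the log2 scale. Samsn1, an adaptor of blood cells, read 141 and 122 in null GFP+ against 1062 in het GFP+, at least 6.88-fold lower. Angptl7, a secreted angiopoietin-like protein, read 158 and 207 against 2245.

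Promoters of the lower genes held a short sequence in a larger share of windows, which is given as a description with no test. AGGAAG, with its reverse complement CTTCCT, is found in many binding sites of ETS-family factors. It was searched on both strands in the 250 bases before each start site listed by RefSeq (GRCm38.p6). Of 272 windows of 207 lower genes, 48.9% held it, against 27.2% of 114 windows of 91 higher genes, 27.2% of 4211 windows of 3291 equal genes, 28.3% of windows of all tested genes and 29.5% of all windows of the table. The windows also differed in base composition. CGCG was present in 23.2% of windows of lower genes, 47.4% of higher, 63.8% of equal and 58.5% of all tested genes. The part of base composition in the difference was not tested, and a match is a description and not a bound site. Windows of 4 lower genes of different blood cell roles are shown because each holds the motif, in capitals, read 5′ to 3′ on the strand of the gene. Laptm5 lies at chr4:130913066-130913315 (+), C1qb at chr4:136886201-136886450 (−), Samsn1 at chr16:75909267-75909516 (−) and Hdc at chr2:126618679-126618928 (−).
Laptm5: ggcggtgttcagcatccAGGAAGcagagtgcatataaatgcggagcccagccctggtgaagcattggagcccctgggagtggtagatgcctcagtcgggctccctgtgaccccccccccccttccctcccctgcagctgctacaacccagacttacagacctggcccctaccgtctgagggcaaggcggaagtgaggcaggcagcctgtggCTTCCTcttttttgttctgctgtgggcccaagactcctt
C1qb: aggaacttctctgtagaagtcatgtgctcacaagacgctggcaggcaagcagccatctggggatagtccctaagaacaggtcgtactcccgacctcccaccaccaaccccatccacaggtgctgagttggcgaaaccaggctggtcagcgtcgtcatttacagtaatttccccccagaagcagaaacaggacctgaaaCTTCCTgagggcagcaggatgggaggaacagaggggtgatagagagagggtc
Samsn1: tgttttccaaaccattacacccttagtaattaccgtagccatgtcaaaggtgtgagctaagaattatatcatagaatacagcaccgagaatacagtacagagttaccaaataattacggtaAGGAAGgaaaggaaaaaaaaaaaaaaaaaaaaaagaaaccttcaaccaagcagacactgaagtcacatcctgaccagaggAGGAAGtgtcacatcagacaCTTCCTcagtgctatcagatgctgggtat
Hdc: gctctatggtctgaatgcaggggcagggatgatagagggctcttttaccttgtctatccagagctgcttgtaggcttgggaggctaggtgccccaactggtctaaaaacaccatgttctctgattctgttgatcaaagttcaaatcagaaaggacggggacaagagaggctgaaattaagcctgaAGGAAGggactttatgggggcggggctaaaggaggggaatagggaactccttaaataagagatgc
Laptm5 and Samsn1 held the motif more than once, with 2 and 3 matches, and C1qb and Hdc held 1 each.

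Some genes of skeletal muscle, a tissue next to some fat depots, were lower. Of 24 tested, 7 (29.2%, beside 2.61% of all genes) were lower, 1 (4.17%, beside 1.31%) was higher and 3 (12.5%, beside 39.7%) were equal. Their median was -1.23, and 8 were above the detection signal in het GFP+ but in neither null GFP+ library. With detection on all 3 GFP+ libraries 1 of 13 was lower and 1 higher, with a median of -0.17, and with no filter 2 of 34 were lower, with a median of -0.49. Acta1, the actin of skeletal muscle, read 137 and 143 in null GFP+ against 1442 in het GFP+ and 208 in null GFP−, at least 9.34-fold lower. Pvalb, a calcium buffer of fast fibres, read 113 and 128 against 910, at least 5.90-fold lower, and null GFP− was at 160. Tnni2, a fast troponin, followed at -3.70. In these genes the het GFP+ library stood apart from all others, null GFP− included. The higher member, Cox8b, is a cytochrome oxidase subunit that brown fat also makes, and read 564 and 1004 in null GFP+ against 165 in het GFP+ (3.17 ± 0.46, adjusted p = 0.0352). Haemoglobin genes of red cells did not pass, with Hba-a1 at 4069 and 3256 in null GFP+ against 8550 in het GFP+ (-1.25, adjusted p = 0.126), and copies of globin genes may share probes. Hba-a1 passed without background correction (adjusted p = 0.0262) and with an intensity trend (adjusted p = 0.0244, limma).

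Lists of endothelial genes, of mural genes, and of PPARγ targets with lipid droplet genes supplied part of the higher genes. The last list includes Pparg itself, which was higher. The 76 tested members of these 3 lists gave 22 higher genes, which is 16.8% of all higher genes. Of the 76, 1 was lower (1.32%, beside 2.61% of all genes) and 7 were equal (9.21%, beside 39.7%). By list, 13 of 30 endothelial, 3 of 20 mural and 6 of 26 PPARγ target and lipid droplet genes were higher. These are 43.3%, 15% and 23.1%, beside 1.31% of all genes. Of these lists, 7, 6 and 10 genes reached the detection signal in a null GFP+ library but not in het GFP+. That favours a higher call, so these shares cannot be read apart from the filter. Above the detection signal on all 3 GFP+ libraries were 22, 14 and 16 of the tested genes. The summed intensity of the endothelial list was 68799 and 58840 in null GFP+ against 61591 in het GFP+. Esam, a junction molecule of endothelium, read 2188 and 2301 in null GFP+ against 507 in het GFP+ and 354 in null GFP−, and Robo4, a guidance receptor of vessels, read 1577 and 1493 against 281. Both null GFP+ values of each were above the other libraries. With the mean of its tested probes Robo4 differed by 1.09 and did not pass (adjusted p = 0.0956, limma). Ramp2, a partner of the adrenomedullin receptor, was instead equal at 13025 and 10546 against 13556. Among PPARγ targets, Adipoq, which encodes adiponectin, read 819 and 3345 in null GFP+ against 126 in het GFP+, at least 10.7-fold higher, and Plin4, a coat protein of lipid droplets, read 1311 and 3171 against 110, at least 13.2-fold higher. The log2 estimate was 6.48 without null GFP+ library 1 and 4.32 without library 3 for Adipoq, and 6.81 and 5.47 for Plin4. The transcription factor gene Cebpb and the lipolysis cofactor gene Abhd5 were equal, at 0.24 and 0.01. The median over the 26 tested PPARγ target and lipid droplet genes, Pparg included, was 1.33 for null GFP+ minus het GFP+ and 0.01 for null GFP− minus het GFP+.

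Of 32 chemokine and receptor genes, 7 (21.9%, beside 2.61% of all genes) were lower and 1 (3.12%, beside 1.31%) was higher. A further 6 (18.8%, beside 39.7%) were equal, and the median was -0.49. With no filter on detection 0 of 46 were higher or lower (limma), with a median of -0.13, and with detection on all 3 GFP+ libraries 5 of 25 were lower. Ccl8, a monocyte attractant, read 1025 and 1605 in null GFP+ against 6215 in het GFP+ (-2.37 ± 0.38, adjusted p = 0.0472), and the platelet and macrophage chemokine Pf4 read 207 and 162 against 1105 (-3.51). The neutrophil attractant Cxcl1 was equal at 17070 and 14399 against 15314 (0.03), as was Cxcl14 (0.17). The single higher one was Cx3cl1, a membrane-bound chemokine chosen after its values were seen, at 307 and 364 in null GFP+ against 148 in het GFP+ (at least 2.16-fold, adjusted p = 0.0346). Of 26 complement and coagulation genes 5 (19.2%, beside 2.61% of all genes) were lower and 1 (3.85%, beside 1.31%) was higher. Without a filter on detection, 0 of 35 were higher or lower. These lists overlap with the macrophage and dendritic cell list, so some lower genes were counted there too. Such genes are C1qb, C1qc and F13a1 of complement and coagulation, and Pf4 and Cx3cr1 of the chemokine list, Cx3cr1 chosen after its values were seen. C2 and the C1 inhibitor Serping1, which stromal cells make, were equal at 9705 and 9812 against 10449 and at 39868 and 37579 against 46262. MHC class II genes all lay below het GFP+, 12 of 12, but only Cd86, a costimulatory molecule, passed. Cd74, chosen after its values were seen, read 2462 and 860 in null GFP+ against 5238 in het GFP+ and 8391 in null GFP− (-1.93, adjusted p = 0.275).

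Of 30 transcription factors that mark position along the body, 1 (3.33%, beside 1.31% of all genes) was higher and 0 were lower. A further 7 (23.3%, beside 39.7%) were equal. Alx4, a homeobox factor of the anterior and ventral body wall, read 1141 and 1636 in null GFP+ against 169 in het GFP+ (4.05 ± 0.35, adjusted p = 0.0121), while Hoxc9 and Hoxa7 were equal at 0.18 and -0.28. Of 55 adhesion receptors and their ligands, 1 (1.82%, beside 1.31%) was higher, 3 (5.45%, beside 2.61%) were lower and 8 (14.5%, beside 39.7%) were equal. At an unadjusted p under 0.05 (limma) 17 were higher and 9 lower. By size alone 13 lay past 2-fold higher and 8 past 2-fold lower. Sdc1, the heparan sulfate carrier syndecan 1, was at least 2.81-fold higher. The semaphorin genes Sema4a and Sema3b, guidance cues, read 677 and 683 in null GFP+ against 2072 in het GFP+ and 559 and 431 against 1722. Cadm3, an immunoglobulin-like adhesion molecule, read 223 and 232 against 644.

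The brightest genes were mostly equal. Of the 50 brightest genes 40 (80%, beside 39.7% of all genes) were equal, 0 were higher and 0 lower. Of the 1000 brightest (limma) 564 (56.4%) were equal, 6 (0.6%, beside 1.31%) higher and 9 (0.9%, beside 2.61%) lower. By intensity, 525 of 2207 genes under 200 were equal, against 163 of 283 genes at 10000 or more. The size of the differences went the other way, with a median of 0.44 on the log2 scale under 200 and 0.19 at 10000 or more, regardless of sign. The null GFP+ libraries also differed from each other more under 200, by a median of 0.34, than at 10000 or more, where it was 0.15. The highest intensity on any array was 49627, so the 50 brightest, at a mean of 29692 or more, had less than 2-fold of room above them. Ribosomal protein genes Rps12, Rps24, Rps29, Rpl9, Rpl37, Rpl38 and Rplp1, the elongation factor gene Eef1a1, the ferritin gene Fth1 and the mitochondrial CYTB were among the 20 brightest equal genes. The others included the membrane protein gene Itm2b, the ubiquitin pseudogene Ubb-ps, whose probe may also bind RNA of its parent gene, and Plpp3, a lipid phosphatase. Rps12 read 48162 in both null GFP+ libraries against 47620 in het GFP+. The 20 genes differed by -0.26 to 0.25.

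**Figure D3:**
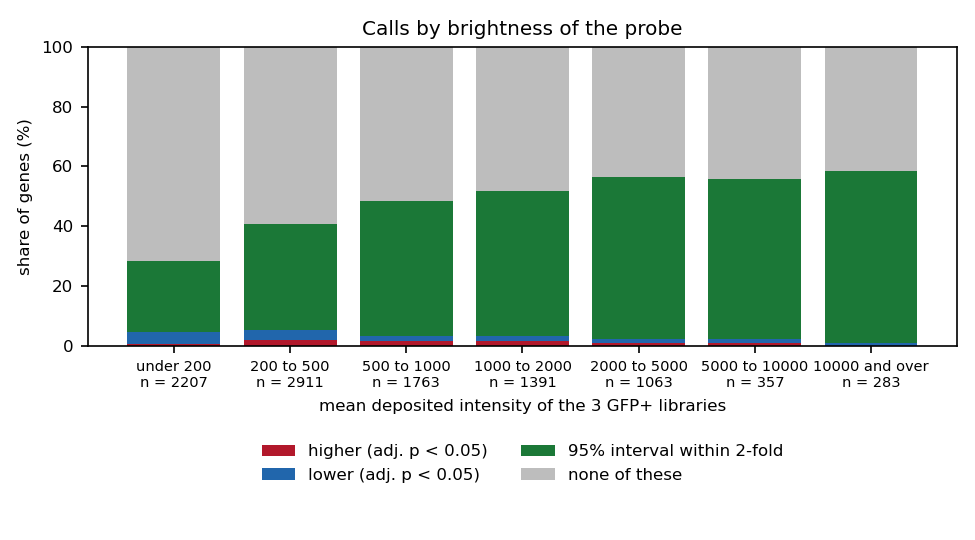
Share of genes (%) that were higher, lower, equal within 2-fold or none of these, by the mean intensity of the probe in the 3 GFP+ libraries. The equal share is lowest under 200, at 525 of 2207 genes, and highest at 10000 or more, at 163 of 283, where 0 genes were higher and 2 lower.

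Lists of the basic machinery of the cell held no called gene. Of 158 genes of ribosomal proteins, translation factors, the proteasome and RNA processing, 0 were higher, 0 lower and 94 equal (59.5%, beside 39.7% of all genes; limma), and 2 were higher and 0 lower at an unadjusted p under 0.05. No other setting run called any of them. Their differences spanned a range of -0.94 to 0.80. Of the 158 genes, 153 were above the detection signal on all 3 GFP+ libraries. The equal share was 45.5% over all genes so detected and 57.6% over genes at 10000 or more. The ribosomal list was the most uniform, with 37 of 52 genes equal and a median of 0.12. Psmb4, a proteasome subunit, read 11953 and 12926 in null GFP+ against 10356 in het GFP+, and Ybx1, an RNA-binding protein, 17775 and 17932 against 19189. The actin and tubulin list had 21 equal of 47 and no call (1 higher gene without background correction or with an intensity trend), with Anxa2, a membrane-binding annexin, at 37700 and 32897 against 30775. Of 38 lysosome genes 17 (44.7%, beside 39.7% of all genes) were equal, among them the cathepsins Ctsh and Ctsb. Only 1 (2.63%, beside 2.61%) was lower, Ctsc, the cathepsin that activates leukocyte proteases, at 392 and 449 against 1727 (-2.32).

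The equal share of energy metabolism genes was near that of all genes. Of 103 genes of fatty acid oxidation, the respiratory chain, the tricarboxylic acid cycle and lipid synthesis, 0 were higher or lower and 49 were equal (47.6%, beside 39.7% of all genes; limma), and at an unadjusted p under 0.05, 9 were higher and 1 was lower. Without background correction the fatty acid oxidation and lipid synthesis lists held 1 higher gene each, and with an intensity trend the lipid synthesis list held 1. The median over the 103 genes was 0.23, above the 0.05 of all genes, and the 4 lists each had a median between 0.19 and 0.28. Acly, which makes acetyl-CoA for fat synthesis, was equal at 8297 and 7485 in null GFP+ against 8166 in het GFP+, as were Etfa, an electron carrier of fat oxidation, at -0.15, and Atp5b, a subunit of ATP synthase, at 20898 and 22080 against 17850. Of 16 glycolysis genes 1 (6.25%, beside 2.61% of all genes) was lower, Hk3, the hexokinase of leukocytes, at least 1.83-fold. Gapdh and Tpi1 were equal. Among 36 genes of xenobiotic and aldehyde metabolism 4 (11.1%, beside 1.31% of all genes) were higher. Of these, Ephx2, an epoxide hydrolase, read 630 and 889 against 201 and Cyp4b1, a fatty acid hydroxylase, 775 and 701 against 206. The bright Gstm2 and Aldh2 were equal.

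Stress and division genes gave no call by limma. At an unadjusted p under 0.05, 1 chaperone gene was higher and 1 lower, and 5 cell cycle genes were higher and 1 lower. With the mean of all tested probes 1 chaperone gene was higher. Heat shock and chaperone genes had 10 equal of 40, with Hspa8 at 23265 and 20480 in null GFP+ against 21115 in het GFP+. Cell cycle genes had the highest median of the lists without a called gene, 0.50, with 31 of 40 above het GFP+ and 8 equal, and it was 0.70 for null GFP+ library 3 and 0.22 for library 1. Tubb5, a tubulin in that list, read 14239 and 13412 against 8146 (0.77, adjusted p = 0.276). Interferon-induced and MHC class I genes had a median of 0.35 with 10 equal of 39, among them Ifitm1 and Ifitm3, and only H2-Q6 was higher, at 354 and 363 against 149, at least 2.32-fold, although near-identical class I genes can share its probe. Another probe of H2-Q6, the one left when detection on all 3 GFP+ libraries was required, differed by 0.82 (adjusted p = 0.354, limma).

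**Figure D4:**
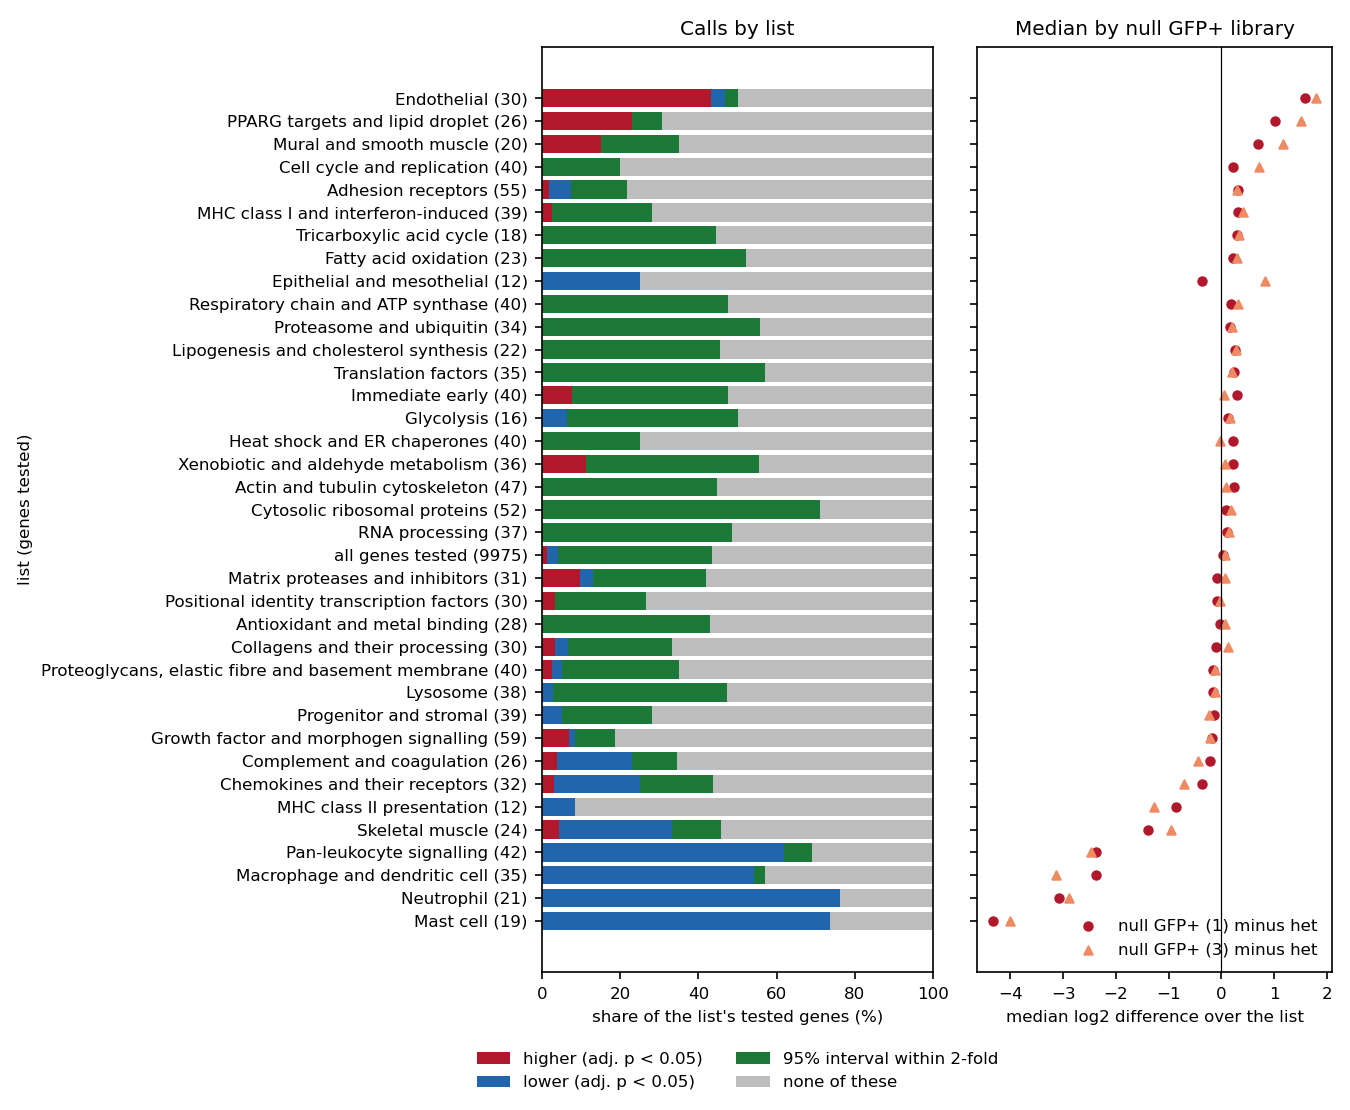
Left, share of the tested genes of each list (%) that were higher, lower, equal within 2-fold or none of these, for lists with at least 12 tested genes, and for all 9975 genes. Right, the median log2 difference of each null GFP+ library from het GFP+ over the same genes; the 4 leukocyte lists at the bottom have the lowest medians of both libraries, from -2.37 to -4.33, and the lists of the basic machinery lie near 0.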

How the data were processed

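RNA of 4 flow-sorted libraries was measured on Illumina Mouse-6 V2 BeadChips. The values used are the intensity per probe as deposited by the authors, on a linear scale, with all arrays sharing 1 distribution to within 0.380%. The sources used here do not give how they were normalized. The detection p-value per probe, also deposited by the authors, served as the lowest value over the arrays, to set the detection signal of 154 and to estimate the background. For the background, each column of detection p-values was paired by rank with the shared distribution. The estimates were averaged over the columns and applied to all arrays alike. Another table held 4 signal columns whose names match no label, and these were not used.

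Intensities were background-corrected by normexp with a background mean of 108 and SD of 13.6, raised by an offset of 16, put on the log2 scale and quantile-normalized. The correction enlarges fold differences of dim genes relative to the deposited intensities, and the offset shrinks them. Lower bounds of folds were taken without the correction, a choice made after seeing the data. A model with 3 groups was fitted with limma 3.58.1 in R 4.3.3 (lmFit and eBayes), with 1 residual and 4.03 prior degrees of freedom, and p-values were adjusted by Benjamini-Hochberg over the 17379 probes tested. The fit was tested on simulated data. The study's methods name an unpaired t-test, which was run as an alternative. Intervals cover 95%. The number of arrays limits the precision, and no sample was imputed or dropped.

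Of 45281 probes, 34885 carry 1 gene symbol of the platform annotation, 18 several and 10378 none, and none was named from a probe with several. Promoters were read from RefSeq (GRCm38.p6). The genes named were Pparg, 15 bright called genes and the ranks 13 to 24 by size in each direction, the 20 brightest equal genes, and of each of 40 lists up to 4 called and 2 equal members or, with none called, the 2 brightest. Clone and predicted names were left out of the rule. Others are said to be chosen after their values were seen. The members, the lists and the motif were chosen with earlier results of these data known, so neither the lists nor their counts are independent support. The alternatives changed the background correction, offset, filter, libraries, variance model, probe choice, scaling and test.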

Additional observations from a re-analysis of the deposited data

Results flagged for a closer look

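Gfra3, a co-receptor for the neurotrophic ligand artemin, read 185 in the null GFP− library, against 110 and 102 in null GFP+ and 117 in het GFP+. It was flagged because null GFP−, which the comparison does not use, lay 1.61 higher on the log2 scale than the highest of the 3 GFP+ libraries, none of which reached the detection signal of 154. With 1 null GFP− library the difference has no replicate check.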

How the results depend on the processing

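The counts of called genes depended on the processing more than the direction of single genes did. Against 131 higher, 260 lower and 3956 equal genes, there were 234, 358 and 7845 without background correction, 179, 307 and 6239 with an offset of 50, 238, 350 and 4426 with an intensity trend in eBayes, and 214, 364 and 4735 with the mean of all tested probes of a gene. With no filter on detection 15, 39 and 13664 of 19057 genes were called, all 15 and 39 among the main calls, and with probes above the detection signal on all 3 GFP+ libraries 65, 102 and 4571 of 8164. Genes past 2-fold numbered 558 higher and 655 lower, 293 and 372 without background correction, and 310 and 335 with detection on all 3 libraries. Leaving out 1 null GFP+ library gave 515 to 758 higher and 676 to 733 lower, with no test. The methods' t-test called 99 higher and 187 lower genes past 2-fold at an unadjusted p under the usual threshold, and 0 and 0 after Benjamini-Hochberg, where Pparg kept its difference of 4.84 at an adjusted p of 0.608. The cause of these shifts was not tested beyond the number of genes tested. Of the genes named, 51 higher and 62 lower, 10 and 15 passed with no filter on detection, and 49 and 61 with the mean of all tested probes. With detection on all 3 libraries 1 higher and 1 lower gene that could be tested no longer passed. None of the 51 higher and 62 lower genes changed direction under any setting run. All settings used the same arrays, and calls already lay on 1 side in both null GFP+ libraries, so this is no independent check of direction. Among equal genes Sparc went to -0.40, against 0.08, with the mean of all tested probes. That mean also ended the equal call of Sparc, Serping1, Anxa2, Ifitm1 and Plpp3, none of which was then called higher or lower. No paired analysis was made, because the null GFP+ and het GFP+ libraries share no replicate number in their titles. The sample descriptions give replicate 3 for every library, so they do not identify pairs. With 2 null GFP+ libraries and 1 het GFP+ library, probes near background and those near the highest intensity of 49627 limit what could be called.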

Other observations

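A few single genes outside the named sets were chosen after their values were seen, and they stand for no group. Of the fixed list of positional transcription factors only 1 of 30 was higher. Msc, the basic helix-loop-helix repressor musculin, read 1086 and 1115 in null GFP+ against 267 in het GFP+ and 222 in null GFP− (2.53 ± 0.27, adjusted p = 0.0176, limma). Snai2, a zinc finger repressor of the Snail family, read 1536 and 1611 against 353 (2.51 ± 0.27, adjusted p = 0.0180, limma), and Dlx3, a homeobox factor, was at least 3.34-fold higher. Both null GFP+ values of each gene lay above those of het GFP+ and null GFP−.

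Other single genes chosen in the same way encode secreted factors and transporters. C1qtnf12, which encodes a secreted protein with a C1q domain, read 898 and 1087 in null GFP+ against 293 in het GFP+ (2.16, adjusted p = 0.0321, limma), and C1qtnf9, which encodes another, read 633 and 654 against 165 (2.92, adjusted p = 0.0126, limma). Lep, which encodes the adipocyte hormone leptin, read 188 and 209 against 101, at least 1.28-fold higher. On the lower side the transporters of GABA and betaine Slc6a12 and Slc6a13 read 198 and 185 in null GFP+ against 741 in het GFP+, and 170 and 164 against 385. For both, null GFP− lay between, at 290 and 238.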
